A study of Arabidopsis thaliana with 4 samples.

Results

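The genes described here are the IQD genes of Arabidopsis thaliana, 7 genes of the 5443 that a probe of 1 gene measured on these arrays. They were chosen by name: every gene whose symbol is IQD followed by a number and that had a probe assigned to it alone. The members are IQD15 (AT3G49380), IQD19 (AT4G14750), IQD20 (AT3G51380), IQD22 (AT4G23060), IQD25 (AT4G29150), IQD32 (AT1G19870) and IQD33 (AT5G35670), where the reference table writes IQD15, IQD32 and IQD33 in lower case. The reference table lists 33 IQD genes. Of the others, 10 lay only on probes annotated to several IQD genes, and 16 were on no probe named here and were not analysed.

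Inflorescences of the agamous mutant were compared with wild-type inflorescences by hybridising both RNAs to each of 4 2-colour arrays, called sets 1 to 4 in the labels. The agamous RNA was in channel 1 on sets 1 and 3 and in channel 2 on sets 2 and 4. The labels name neither the allele nor the strain, age or stage of the plants, and do not say whether the sets are separate plants. The p-values given here therefore cover the spread between these arrays, which may be technical. AGAMOUS is the MADS-domain factor that specifies stamens and carpels, and agamous flowers bear petals and sepals in place of those organs. Fewer cells of a type and less RNA per cell cannot be told apart in such whole inflorescences.

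IQD proteins are plant scaffold proteins named for a domain of IQ motifs through which they bind calmodulin and calmodulin-like proteins. Many of them lie along cortical microtubules or at the plasma membrane and can bring kinesin light chain-related proteins there, and they are known for effects on cell shape and on the plane of growth. In tomato an IQD protein, SUN, lengthens the fruit, and in rice a related protein narrows or widens the grain.

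The direction of the ratios is not settled. Each value is the log2 of 1 channel over the other on 1 array, and the sources used here do not say which channel was divided by which. Across probes, with values at the outer bounds of 6.64 and -6.64 left out, sets 1 and 4 correlated with Pearson's r = 0.70 and sets 2 and 3 with r = 0.77, but sets 1 and 3, which share a channel order in the labels, with r = -0.66, and sets 2 and 4 with r = -0.71. Genes are not independent replicates, and these coefficients are descriptions. The tests of the IQD genes are therefore given in 3 readings: as deposited, with sets 2 and 3 sign-turned, and turned by the labels (sets 2 and 4). Other genes are given with sets 2 and 3 turned, with their counts of calls in the other readings. A ratio above 0 with sets 2 and 3 turned is called likely higher in agamous, because marker genes of stamens and carpels ran the other way. Agamous flowers lack these organs. Turning the overall sign round would make each such ratio a decrease.

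As deposited, IQD19, IQD33, IQD22 and IQD20 were above 0 on sets 1 and 4 and below 0 on sets 2 and 3, and the other 3 genes did not have that order of signs. IQD19 had 1.81 on set 1, -1.63 on set 2, -1.22 on set 3 and 1.65 on set 4. Its sizes on the 4 arrays were close to each other, while its sign changed between them. The same order of signs was found for 8003 of 25818 features with 4 values, or 31.0%, so that 4 of 7 members is to be read against that share.

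**Figure D1:**
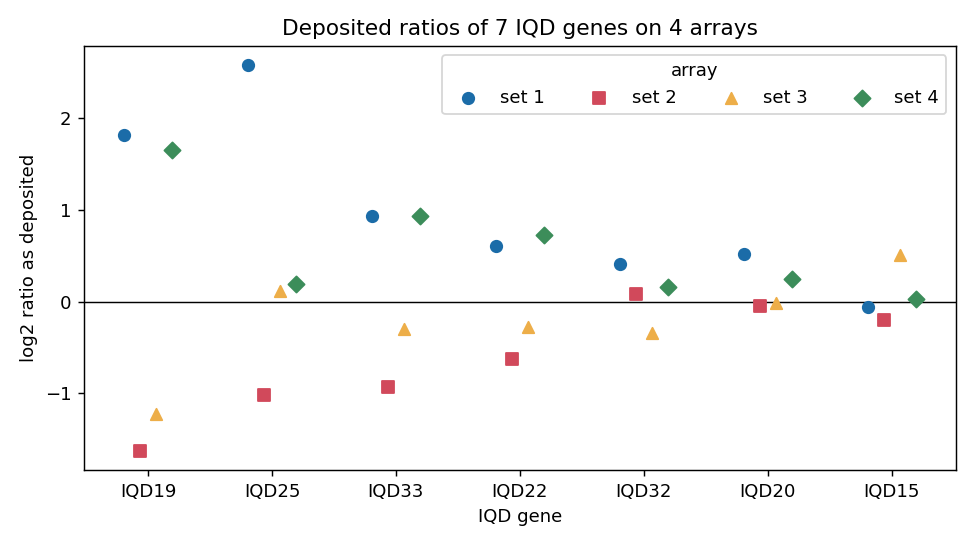
Deposited log2 ratios (vertical axis) of the 7 IQD genes (horizontal axis), with a point for each of the 4 arrays. IQD19, IQD33, IQD22 and IQD20 lie above 0 on sets 1 and 4 and below 0 on sets 2 and 3, with IQD19 between -1.63 and 1.81.

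The genes of stamens, carpels and nectaries had the opposite order. Of 25 markers listed for anther, pollen, carpel, nectary, photosynthetic tissue and meristem, 11 had a probe of 1 gene, and the 8 of anther, pollen, carpel and nectary were all below 0 on sets 1 and 4 and above 0 on sets 2 and 3. AGAMOUS itself was not among the genes measured singly, so the mutated gene could not be used as a check of the labels. ATA20, an anther gene, had -2.66, 2.98, 3.09 and -2.58 on sets 1 to 4, and EMS1, a receptor kinase needed to form the tapetum, had -1.32, 1.33, 1.35 and -1.39. INO, a YABBY transcription factor of ovule integuments, and SWEET9, the nectary sugar transporter, had that order of signs too. The anther marker SPL, with a turned mean of -0.22 ± 0.10 (adjusted p = 0.170, limma), and the pollen marker TUA1 (adjusted p = 0.0562) did not pass the test. Of all features, 9.16% were called below 0 with sets 2 and 3 turned, and the share with the markers' order of signs was not counted. IQD19, IQD33, IQD22 and IQD20 thus had the opposite sign to all 8 of these genes on each array, whichever channel was divided by which. That follows from the order of signs by which these 4 were picked out, which 31.0% of features with 4 values shared. For IQD20 it also depends on the centring. Relative to the array medians IQD20 had turned ratios of -0.088 on set 2 and -0.095 on set 3, the side of the markers. The 2 photosynthetic genes measured, PRK and SBPASE, had turned means of 0.33 ± 0.28 and 0.04 ± 0.07 (SD, n = 4 arrays each) and did not pass the test (adjusted p = 0.171 and 0.773, limma). The meristem gene CLV3 had turned ratios of 6.64 (at the bound), 0.37, 0.53 and -0.03 on sets 1 to 4, above 0 on 3 of 4 arrays, with a mean of 1.88 ± 3.19 that rests on set 1 (adjusted p = 0.338). The part of these genes and of the organ genes in the IQD ratios was not tested.

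**Figure D2:**
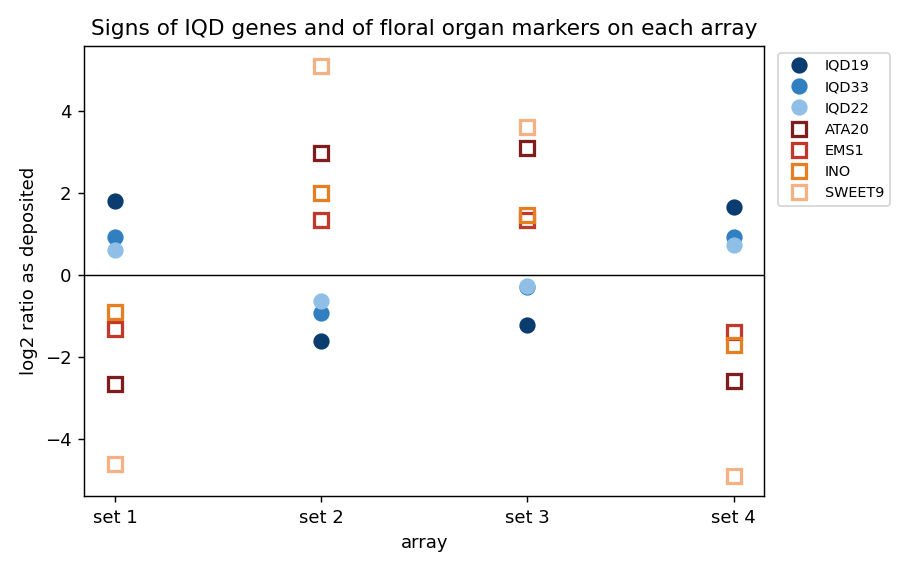
Deposited log2 ratios (vertical axis) of 3 IQD genes (filled circles) and 4 organ markers (open squares) on each array (horizontal axis). On every array the IQD genes lie on the other side of 0 from ATA20, EMS1, INO and SWEET9.

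With sets 2 and 3 turned, 3 of the 7 IQD genes, IQD19, IQD33 and IQD22, were likely higher in agamous inflorescences, by 2.98-fold, 1.71-fold and 1.47-fold, and none was called lower. The test was limma's moderated test of the mean ratio against 0, two-sided, fitted over 26100 features with Benjamini-Hochberg adjustment, and a call is an adjusted p under 0.05. In the same fit 17.4% of all features were called, 8.23% above 0 and 9.16% below 0. Among genes with a probe of their own, 9.5% were called above 0. Of 415 empty features, which carry no gene probe, 3.86% were called above 0 when they were tested with the probes. The median of the 7 mean ratios was 0.56 on the log2 scale, against 0.15 for all features. The signs were turned after these same arrays had been seen, a choice that the adjusted p-values leave out.

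IQD19 had the largest mean of the 7 members in this reading. Its turned ratios were 1.81, 1.63, 1.22 and 1.65 on sets 1 to 4, with a mean of 1.58 ± 0.25 (SD, n = 4, adjusted p = 0.00432, limma). All 4 values were above 1, and on no array were more than 4.65% of features higher, with 1.33% higher on set 3, where its ratio was lowest. Relative to the median of each array the mean was 1.44 ± 0.23 (adjusted p = 0.00423). The call was kept under 14 of 16 alternatives. It ended with quantile normalization, where the mean ratio was larger at 2.72 (adjusted p = 0.0540), and with sets 1 and 2 and sets 3 and 4 averaged (adjusted p = 0.0656).

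IQD33 had turned ratios of 0.93, 0.93, 0.30 and 0.93, with a mean of 0.77 ± 0.32 (SD, n = 4, adjusted p = 0.0371, limma). Sets 1, 2 and 4 gave nearly the same value, and set 3 was well below them. Between 7.16% and 10.7% of features were higher on those 3 arrays and 32.6% on set 3, so that IQD33 was also lower in rank there. After centring on the array medians its mean was 0.64 ± 0.30 and it no longer passed (adjusted p = 0.0586). The call also ended without set 1, 2 or 4, with adjusted p from 0.102 to 0.149, and held without set 3 (mean 0.93, adjusted p = 0.0328). It was kept under 8 of 16 alternatives. A spread that follows a trend, a dye term and averaged array pairs ended it too (adjusted p = 0.0546, 0.0807 and 0.141, limma).

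IQD22, a gene described as raised by the DELLA repressors of gibberellin signalling, had turned ratios of 0.60, 0.63, 0.28 and 0.73, with a mean of 0.56 ± 0.20 (SD, n = 4, adjusted p = 0.0416, limma). Set 3 was lowest, as for every member but IQD32, and all 4 values were above 0. Over all features set 3 also had the smallest spread, with a median absolute deviation of 0.304. It was 0.399, 0.367 and 0.327 on sets 1, 2 and 4. Relative to the array medians the mean was 0.42 ± 0.18 (adjusted p = 0.0807). Leaving out any 1 array ended the call, with adjusted p from 0.0639 without set 3 to 0.159 without set 2, although the mean moved only between 0.50 and 0.65. The call was kept under 7 of 16 alternatives. It also ended with a spread that follows a trend, a dye term and averaged array pairs (adjusted p = 0.0616, 0.0891 and 0.149, limma).

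IQD25 had the second largest mean, 0.92, but did not pass the test (adjusted p = 0.243, limma). Its turned ratios were 2.57, 1.02, -0.11 and 0.19, so that sets 1 and 2 were high and sets 3 and 4 near 0. The SD of 1.20 was larger than the mean, and without set 1 the mean was 0.36. On set 1, 3.82% of features were higher than IQD25, against 68.0% on set 3.

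IQD32, IQD20 and IQD15 had small ratios and did not pass. IQD32 had 0.41, -0.09, 0.35 and 0.16, with a mean of 0.21 ± 0.22 (SD, n = 4, adjusted p = 0.293, limma). IQD20 had 0.51, 0.05, 0.02 and 0.24, all above 0, with a mean of 0.20 ± 0.23 (adjusted p = 0.301). Relative to the array medians both were near 0, at 0.07 ± 0.22 for IQD32 and 0.07 ± 0.21 for IQD20. IQD15 had -0.06, 0.20, -0.50 and 0.02, with a mean of -0.09 ± 0.30 (adjusted p = 0.701), the only mean below 0, and that sign was lost without set 3 (mean 0.05).

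**Figure D3:**
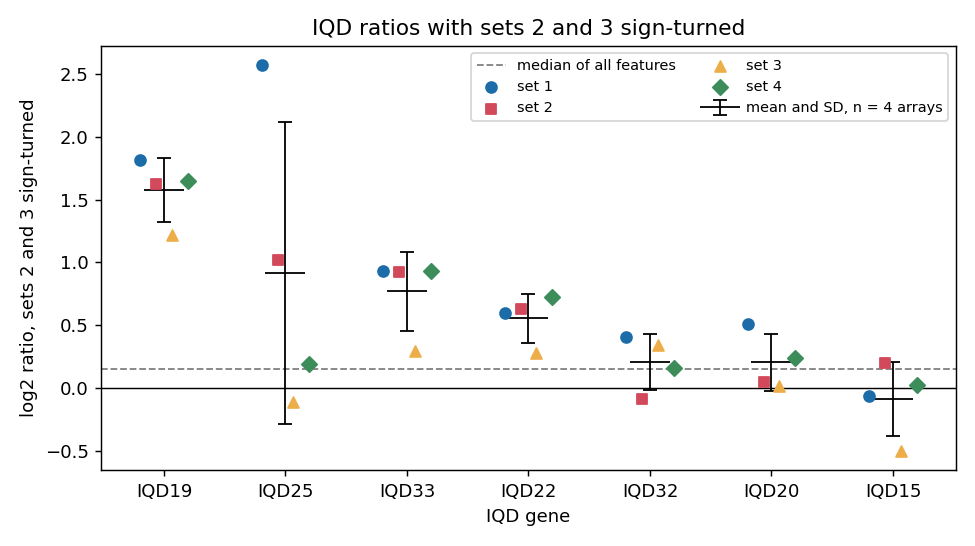
Log2 ratios with sets 2 and 3 sign-turned (vertical axis) for the 7 IQD genes in order of their mean (horizontal axis); points are arrays, bars are the mean and SD over 4 arrays, and the dashed line is the median of all features at 0.15. IQD19 stands apart from all but IQD25, whose 4 values run from -0.11 to 2.57.

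The ratios of all features leaned above 0 in this reading, and the centring of the deposited values is unknown. The medians were 0.16, 0.14, 0.11 and 0.13 on sets 1 to 4 once turned. Centring each array on its median moved the median of all features by -0.14 and left 1 IQD gene called, IQD19, with 3.4% of features called above 0. It also changed the split of all calls, with 887 above and 2670 below 0 (24.9% above), where the uncentred ratios gave 2147 above and 2392 below (47.3% above). IQD19, IQD33 and IQD22 were above the array median on all 4 arrays, as were 19.6% of all features.

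The 7 members did not form a firm order. These ratios are each relative to the gene's own other channel and carry no information on which member was more abundant. Of the 21 pairs of members, 11 had a difference of the same sign on all 4 arrays, and 7 had ranges that did not overlap. Those 7 were IQD19 against every member but IQD25, and IQD33 and IQD22 each against IQD15. IQD19 exceeded IQD33 by 0.81 ± 0.11 and IQD22 by 1.02 ± 0.13 (SD of the paired differences, n = 4 arrays). Differences from IQD15, which was not called, had similar SDs, at 0.86 ± 0.12 for IQD33 and 0.64 ± 0.15 for IQD22. IQD33 exceeded IQD22 by 0.21 ± 0.14, with overlapping ranges. The neighbours in the order IQD19 and IQD25, IQD25 and IQD33, IQD32 and IQD20, and IQD20 and IQD15 had differences smaller than or within 1 SD of 0. IQD22 and IQD32 differed by 0.35 ± 0.36, likewise within 1 SD. With 4 arrays an exact sign-flip test of 1 pair could not go below a two-sided p of 0.125, and none is given.

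As deposited and turned by the labels, no IQD gene passed. In the deposited ratios the means of the 7 members lay between 0.07 and 0.46, and the SDs of IQD19, IQD33 and IQD22 were 1.83, 0.93 and 0.66 because arrays of opposite sign were averaged. The call count was 0 of 7, with 0 of 7 at an unadjusted p under 0.05 (limma; lowest 0.340, for IQD20), where 0.226% of all features were called and 2.29% had an unadjusted p under 0.05. Turned by the labels, the means lay between -0.05 and 0.88, the highest that of IQD25, which had 2.57, 1.02, 0.11 and -0.19. Again 0 of 7 passed and 0 had an unadjusted p under 0.05 (lowest 0.156, for IQD25), where 0.0% of features were called and 0.732% had an unadjusted p under 0.05. IQD19 averaged 0.14 ± 1.83 in that reading (SD, n = 4).

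**Figure D4:**
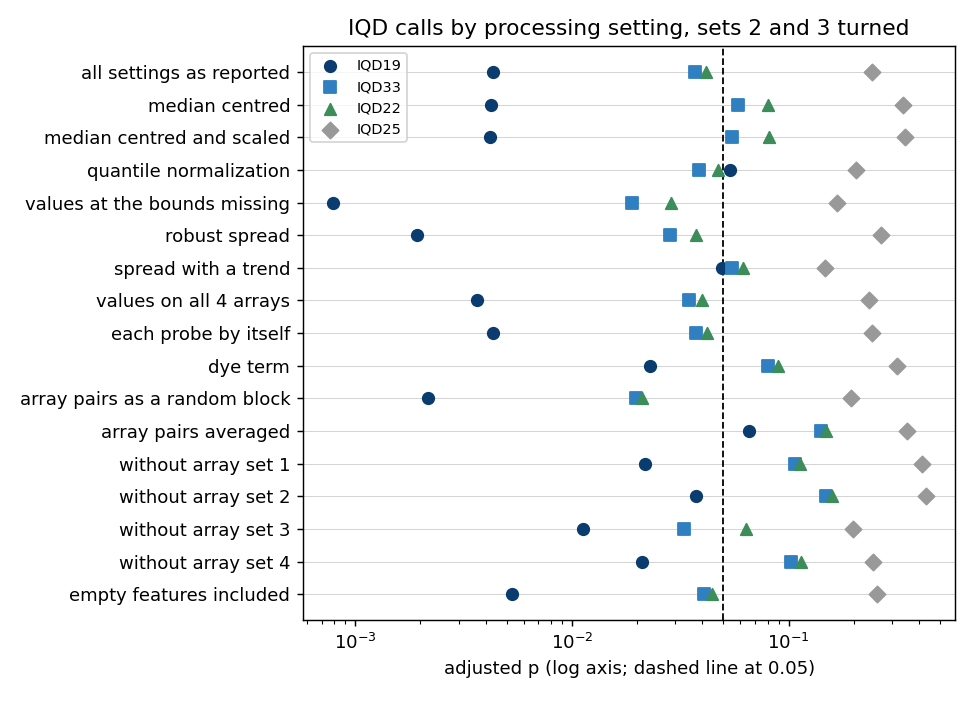
Adjusted p (horizontal axis, log scale; dashed line at 0.05) of IQD19, IQD33, IQD22 and IQD25 with sets 2 and 3 turned, under the settings reported and under 16 alternatives (vertical axis). IQD19 lies left of the line except with quantile normalization and with averaged array pairs, IQD33 and IQD22 lie on both sides of it, and IQD25 lies right of it throughout.

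Genes of calmodulin and calcium signalling were measured by few probes of their own. A list of 134 genes held calmodulins, calmodulin-like proteins, other calmodulin-binding proteins, and calcium-sensor proteins with their kinases. It is wider than the partners of IQD proteins. Of these genes 2 were measured, CML30 and CML41, both calmodulin-like proteins. With sets 2 and 3 turned, CML30 had 0.71, 0.34, 0.76 and 0.78, above 0 on all 4 arrays, with a mean of 0.65 ± 0.21 (adjusted p = 0.0321, limma). CML41 had -1.36, -1.74, -0.76 and -0.46, below 0 on all 4 arrays, with a mean of -1.08 ± 0.58 (adjusted p = 0.0480). The list thus had 1 call in each direction, where 8.23% of all features were called above 0 and 9.16% below. Its median was -0.22, against 0.15 for all features, and both calls ended when any 1 array was left out.

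Of 54 genes on the microtubule list, 6 were measured and 0 passed, where 17.4% of all features were called in either direction. The alpha-tubulin gene TUA1 was the 1 gene at an unadjusted p under 0.05 (limma). The share of all features under that limit was not counted in this reading. TUA1 had -0.59, -0.23, -0.49 and -0.43, with a mean of -0.44 ± 0.15 (SD, n = 4, adjusted p = 0.0562, limma), and passed after centring (adjusted p = 0.0352). TUA1 is also, with SWEET8, a pollen gene among the 8 organ markers that ran below 0. The likely direction rests on the markers of stamens and carpels among them. The other 3 tubulin genes, TUB6, TUB7 and TUA6, had means of -0.35 ± 0.60, -0.03 ± 0.31 and 0.02 ± 0.48 (SD, n = 4 each) and did not pass. The next smallest p was that of SPR1, a microtubule-associated protein of directional cell growth, with 0.16 ± 0.11 (adjusted p = 0.313). The median of the 6 means was close to 0, at -0.003, against 0.15 for all features.

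Of 56 genes named TRM or OFP, which include proteins that recruit the microtubule-organising TON1 complex, 7 were measured and the 7 means lay between 0.06 and 1.0, although those of TRM21 and TRM30 fell below 0, to -0.08 and -0.07, after centring. TRM22 had 1.38, 1.15, 0.65 and 0.83, with a mean of 1.0 ± 0.32 (SD, n = 4, adjusted p = 0.0215, limma), and was the 1 of 7 past the test, where 8.23% of all features were called above 0. It lost its call without set 1, 2 or 4. The median of the list was 0.25, against 0.15 for all features, and 1 of the 7, TRM82, is a tRNA modification gene that shares only the letters of the name. None of these lists was compared with the IQD genes by a test. In each of the other readings, 0 of the 15 genes on the 3 lists passed, and 0 had an unadjusted p under 0.05 (limma). Of all features, 0.226% passed as deposited and 0.0% turned by the labels, and 2.29% and 0.732% had an unadjusted p under 0.05.

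The named genes whose 4 turned ratios lay closest to those of an IQD gene were found by the root mean square difference over the 4 arrays, among 531 genes with a symbol. Closest to IQD19 were BLT (0.295), which acts in trichome branching, the receptor-like kinase NCRK (0.318) and the mannan synthase-like CSLA01 (0.320). Closest to IQD33 were the signalling peptide gene CLE27 (0.133), the glutathione transferase GSTU27 (0.150) and the subtilase SBT1.3 (0.159). Closest to IQD22 were TERT (0.0793), the telomerase reverse transcriptase, the zinc finger protein JKD (0.106) and FU (0.139). The last 3 had means of 0.57, 0.52 and 0.52, of which only that of FU passed (adjusted p = 0.0465, limma). Likeness over 4 arrays is a description of size as well as shape. In each of the other readings, 0 of these 9 genes passed and 0 had an unadjusted p under 0.05 (limma). Of all features, 0.226% passed as deposited and 0.0% turned by the labels. The 9 genes were picked by their turned ratios, so neither their calls nor these counts are separate evidence.

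The members did not lie beside each other, and their loci are on chromosomes 1, 3, 4 and 5, with 3 of them, IQD19, IQD22 and IQD25, on chromosome 4. Of the 14 protein-coding neighbours in the reference table, 4 had a probe of their own. With sets 2 and 3 turned, 0 of the 4 passed and 0 had an unadjusted p under 0.05 (limma). In that reading 17.4% of all features were called, so 0 of 4 does not set the neighbours apart from other features. The neighbour of IQD33, AT5G35660, had a mean of 0.36 (adjusted p = 0.222) and that of IQD22, AT4G23050, had -0.03 (adjusted p = 0.901). Both neighbours of IQD32 had means close to its own, AT1G19860 at 0.21 and AT1G19880 at 0.18, but the median of all features was 0.15. In the other readings too, 0 of the 4 passed and 0 had an unadjusted p under 0.05 (limma). Of all features, 0.226% passed as deposited and 0.0% turned by the labels, and 2.29% and 0.732% had an unadjusted p under 0.05.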

How the data were processed

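The deposited values were 1 log2 ratio per feature and array, normalized by the authors as in a publication that the labels cite, with steps not given in the sources used here. The log2 scale is inferred from signed values that end at 6.64 and -6.64, a 100-fold ratio. Centring and numerator stay unknown. No column was left unused.

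Of 26933 features, 26474 were analysed probes, and the 424 empty spots and 35 controls stayed out of the main tests. The platform annotation gave 5784 probes 1 gene, 7497 several and 13193 none, and 5756 of the first matched the RefSeq table of assembly TAIR10.1. Probes of 1 gene were averaged, giving 26133 features. Coordinates are not given, because no build is named for the probes. Each IQD gene had 1 probe, and related genes can share its signal.

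Features with values on at least 3 arrays were tested with limma 3.58.1 (lmFit, eBayes) in R 4.3.3, checked on simulated ratios. The number of arrays limits the precision. The members, the signs and the lists were chosen with earlier results of these data known. Named genes are the 7 members, 4 organ markers, up to 4 called genes per list and direction or otherwise the 2 with the smallest p, and the 3 nearest genes of IQD19, IQD22 and IQD33. TUA6, TUB6, TUB7, CLV3, SPL, SWEET8, TRM21, TRM30, TRM82, PRK, SBPASE and the neighbouring loci were named after their values were seen. Alternatives were other scalings, missing-value rules, spread estimates and array subsets.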

Additional observations from a re-analysis of the deposited data

Results flagged for a closer look

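With sets 2 and 3 turned, the value of IQD33 on set 3, 0.30, lay far from the values of the other 3 arrays, with a gap to the nearest that filled almost all of the range of the 4 arrays. Among the 21 combinations of gene and reading examined this was the 1 flagged. The readings hold the same values with signs turned in different ways, so the combinations are not independent. Their count therefore cannot say how often chance would give such a gap, and the cause of the low value was not tested. Set 3 was also the lowest array for every member but IQD32, and had the smallest spread over all features. Without set 3 the mean of IQD33 was 0.93 (adjusted p = 0.0328, limma).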

How the results depend on the processing

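With sets 2 and 3 turned, the number of IQD genes called was 3. It was 1 after median centring, with or without scaling, with a spread that follows a trend, with a dye term and at an adjusted p under 0.01, and 0 with array pairs averaged. Leaving out 1 array gave 1 to 2, with 2 without set 3 (IQD19 and IQD33) and 1, IQD19, without set 1, 2 or 4. Over the 16 alternatives the mean ratio of each member but IQD15 kept its sign, and that of IQD15 lay between -0.24 and 0.0523, with -0.18 to 0.0523 without 1 array. Over all features the count was 4539. It was 1983 with a spread that follows a trend, 1749 with a dye term, 6909 with array pairs as a random block, 809 with array pairs averaged, 1166 at an adjusted p under 0.01, and 1084 to 2096 without 1 array. As deposited it was 59, and 14 after centring and scaling, 0 with values at the bounds missing, 216 with a trend, 20 with values on all 4 arrays, 17 with a dye term, 94 with empty features included, and 18 to 184 without 1 array. Turned by the labels it was 0, and 46 without set 4.

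As deposited, the mean of IQD19 turned to -0.10 with quantile normalization. Without 1 array the deposited means ranged from -0.40 to 0.75 for IQD19, -0.24 to 0.96 for IQD25, -0.10 to 0.52 for IQD33, -0.10 to 0.35 for IQD22, -0.0336 to 0.22 for IQD32 and -0.0785 to 0.15 for IQD15. Turned by the labels, IQD19 had -0.00802 after centring and scaling, and without 1 array -0.41 to 0.74 for IQD19, -0.10 to 0.52 for IQD33, -0.13 to 0.32 for IQD22, -0.20 to 0.0549 for IQD32 and -0.0686 to 0.18 for IQD20. None of these passed.

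The calmodulin list had 2 calls, and 1 after centring, with or without scaling, and with empty features included. It had 0 with quantile normalization, a trend, a dye term, averaged pairs, an adjusted p under 0.01 and any 1 array left out (0 to 0). The microtubule list had 0, and 1 after centring, with or without scaling, and with a random block. The TRM and OFP list had 1, and 2 with values at the bounds missing, robust spread or a random block, and 0 with a dye term, averaged pairs and an adjusted p under 0.01, and 0 to 1 without 1 array. The cause of these differences was not tested. Testing empty features with the probes was chosen after seeing the data. Each ratio already pairs the agamous and wild-type RNA of 1 array. No further pairing was possible because the 4 ratios form 1 group, with no second group that shares their set numbers. The array pairs above join sets 1 and 2 and sets 3 and 4 within that group, a grouping the labels do not state.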

Other observations

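The 9 probes annotated to more than 1 IQD gene belong to no gene's result. With sets 2 and 3 turned, 2 of them passed above 0 and 0 below 0 (limma), where 8.23% of all features were called above 0 and 9.16% below. As deposited 0 of 9 passed and 1 had an unadjusted p under 0.05 (limma), where 0.226% and 2.29% of all features did. That 1 was A006382_01, with 3 of its 4 values at the bound. Turned by the labels 0 passed and 0 had an unadjusted p under 0.05, where 0.0% and 0.732% of all features did. The probe annotated to IQD20 and IQD21, A008871_01, had deposited ratios of 2.11, -1.18, -1.04 and 1.45 on sets 1 to 4 and a turned mean of 1.45 ± 0.47 (SD, n = 4, adjusted p = 0.0179). All 4 turned values were above those of the probe of IQD20 alone. Probe A017929_01, of IQD23 and IQD24, had a turned mean of 0.79 ± 0.38 (adjusted p = 0.0471), while A019735_01, annotated to the same pair, had -0.07 ± 0.43 (adjusted p = 0.808). Probe A009217_01 is annotated to 5 IQD genes, among them IQD19, IQD22 and IQD25, and had 0.33 ± 0.15 (adjusted p = 0.0982), above 0 on all 4 turned arrays. Probe A022466_01, of IQD15 and IQD16, was below 0 on all 4 turned arrays, with deposited ratios of -1.57, 2.15, 1.47 and -6.64, the last at the bound (adjusted p = 0.107). Probe A006382_01, of IQD28 and IQD29, stood at the bound of 6.64 on sets 1, 3 and 4 and at -0.61 on set 2, and gives no measured ratio on the first 3. Probe A003993_01, of IQD30, IQD31 and IQD32, had deposited ratios of 1.59, -0.72, 0.14 and 0.49. Its turned mean was 0.67 ± 0.72 (adjusted p = 0.185, limma). Probes A001477_01, of IQD28 and IQD29, and A003909_01, of IQD26 and IQD27, had 0.24 ± 0.22 (adjusted p = 0.231) and 0.14 ± 0.28 (adjusted p = 0.505).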
